A study of Mus musculus with 8 samples.

Results

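The genes of glucose handling were examined as a group of 39 genes, chosen by role: transporters of glucose and lactate and enzymes of glycolysis, of the pentose phosphate, polyol and hexosamine pathways, and of glycogen. All 39 were found by symbol among the 49492 rows of the deposited table, and 38 passed the filter on low values, which 16232 rows passed in all. Aldoc, a brain form of aldolase, did not pass and lay between 0.157 and 0.739 in the 8 samples. The RNA-seq study used mouse embryonic fibroblasts (MEFs), connective tissue cells of the embryo grown in culture. All samples came from MEFs with floxed Pontin alleles, which a Cre virus deletes, and with an added Flag-tagged copy of Pontin, a chromatin-remodelling ATPase encoded by Ruvbl1. In Pontin WT MEFs the added copy was wild type, and in Pontin RA MEFs 2 arginines that the methyltransferase CARM1 methylates were replaced by alanine. Each form was carried by 1 stably expressing line, so the Pontin form and the line cannot be told apart. Cells were kept in normal medium or under glucose starvation, in medium without glucose that held dialyzed serum, and how long the sequenced cells were starved is not given in the sources used here. The 4 groups had 2 replicates each, and whether replicates came from separate cultures is not stated, so p-values measure the spread between these samples.

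Glycolysis splits glucose into pyruvate and yields ATP and NADH, and lactate dehydrogenase returns pyruvate to lactate so that NADH can be used again. Side branches leave it at its early steps: the pentose phosphate pathway makes NADPH and ribose, the polyol pathway turns glucose through sorbitol into fructose, the hexosamine pathway feeds protein glycosylation, and glycogen stores glucose. Fibroblasts in culture draw on glucose strongly, and several of these enzymes exist as isozymes encoded by separate genes.

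Values are CPM (read counts scaled to a common library total) of a library size that the authors scaled, with 43205841 to 56363034 reads recovered per sample. Differences are in log2(value + 1), with the SE and the BH-adjusted p from limma, and calls are those with an adjusted p under 0.05. Ruvbl1 lay at 27.6 to 28.5 in the 4 WT samples, at 32.1 and 36.8 in RA in normal medium, and at 42.9 and 45.1 in starved RA, and the table cannot tell its alanine form from the wild type. The 10 fibroblast markers summed to 11000 to 11400 in normal medium, to 5620 to 5710 in starved WT and to 7440 to 7460 in starved RA. In starved WT 9 of 10 were called lower, where 39.2% of all genes were. In starved RA 7 were called lower and 1 higher, where 33.7% and 35.0% of all genes were. The RA response less that in WT was called above 0 for 9 and below 0 for 1, against 24.5% and 26.1% of all genes. The 6 leukocyte markers summed to 13.4 to 25.2, the 4 endothelial markers to 1.94 to 6.6, the 5 epithelial markers to 1.43 to 3.21 and the 5 muscle markers to 1.65 to 4.79. The leukocyte, endothelial and muscle sums were higher under starvation in both genotypes and consisted mostly of Csf1r (10.4 to 20.1), Kdr (1.63 to 6.54) and Acta1 (1.39 to 4.58). Ptprc, Pecam1 and Cdh5, which define leukocytes and endothelium, were at 0.478 or less in every sample, and Krt5, Myod1 and Myog were at 0. The part of these shifts in the results below was not tested. In bulk RNA, fewer cells of a kind and less RNA per cell cannot be told apart.

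Promoter sequence is shown first, for Sord, Pfkfb4 and Ldhb and for the glucose and lactate transporters Slc2a1 and Slc16a1. Starvation responses of the first 3 differed between the genotypes by at least 1 on the log2(value + 1) scale, and those of the transporters also differed. The windows run 5′ to 3′ from 250 bases before to 50 bases after the gene start, from RefSeq on GRCm38.p6. The table was made on mm9 and carries symbols only, so genes were matched by symbol, which succeeded for 37 of the 39 genes and 52 promoters. Capitals mark, on either strand, the E-box CACGTG, the hypoxia response core ACGTG that lies within it, the FOXO core TGTTTAC, the CEBP-ATF core TGATGNAA, the GC box GGGCGG and the CCAAT box.
Sord (chr2:122234589-122234888, plus strand): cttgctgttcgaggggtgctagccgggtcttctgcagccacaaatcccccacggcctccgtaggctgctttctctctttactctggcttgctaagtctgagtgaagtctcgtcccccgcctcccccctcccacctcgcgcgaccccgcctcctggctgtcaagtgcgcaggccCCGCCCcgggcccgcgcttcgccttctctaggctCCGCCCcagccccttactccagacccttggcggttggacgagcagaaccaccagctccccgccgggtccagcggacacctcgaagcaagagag
Pfkfb4 (chr9:108991652-108991951, plus strand): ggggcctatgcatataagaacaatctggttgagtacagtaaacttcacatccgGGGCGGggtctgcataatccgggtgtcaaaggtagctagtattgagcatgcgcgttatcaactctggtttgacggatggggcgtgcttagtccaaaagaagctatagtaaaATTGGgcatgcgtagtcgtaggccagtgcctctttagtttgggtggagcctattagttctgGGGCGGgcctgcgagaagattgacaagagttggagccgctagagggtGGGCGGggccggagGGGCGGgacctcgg
Ldhb (chr6:142507908-142508207, minus strand): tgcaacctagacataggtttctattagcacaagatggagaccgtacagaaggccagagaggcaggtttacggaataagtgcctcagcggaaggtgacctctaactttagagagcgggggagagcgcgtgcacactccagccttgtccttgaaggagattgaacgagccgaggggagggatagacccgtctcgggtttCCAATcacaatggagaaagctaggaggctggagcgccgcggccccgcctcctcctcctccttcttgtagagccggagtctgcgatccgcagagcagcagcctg
Slc16a1 (chr3:104638414-104638713, plus strand): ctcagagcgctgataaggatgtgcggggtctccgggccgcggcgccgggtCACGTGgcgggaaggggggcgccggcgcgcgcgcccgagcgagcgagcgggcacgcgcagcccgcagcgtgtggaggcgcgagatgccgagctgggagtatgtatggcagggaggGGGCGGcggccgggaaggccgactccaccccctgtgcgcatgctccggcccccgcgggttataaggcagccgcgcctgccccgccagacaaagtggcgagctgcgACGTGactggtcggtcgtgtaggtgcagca
Slc2a1 (chr4:119108495-119108794, plus strand): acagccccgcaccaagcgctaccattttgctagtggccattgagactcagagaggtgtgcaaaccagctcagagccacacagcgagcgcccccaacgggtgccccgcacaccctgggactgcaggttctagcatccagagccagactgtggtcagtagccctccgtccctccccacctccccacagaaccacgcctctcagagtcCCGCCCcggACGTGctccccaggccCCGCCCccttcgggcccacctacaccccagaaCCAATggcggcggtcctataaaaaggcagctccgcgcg
The windows of Sord, Pfkfb4 and Ldhb held neither ACGTG nor TGTTTAC. That of Slc16a1 held CACGTG 200 bases before the start, and that of Slc2a1 held ACGTG 36 bases before it. Over all 52 promoters of these genes, 46.2% held ACGTG, against 19.6% of 32851 RefSeq promoters of the same length. The shares were 65.4% against 35.7% for GGGCGG, 9.62% against 7.15% for CACGTG, 5.77% against 3.65% for TGTTTAC and 36.5% against 37.4% for CCAAT, and TGATGNAA was in none against 3.97%. ACGTG was found in 8 of 16 genes called higher in starved WT, in 7 of 13 called lower and in 4 of 7 not called.

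Glucose starvation moved most of the 38 genes in both genotypes, and it raised about as many as it lowered. In WT, 16 genes (42.1%) were called higher and 14 (36.8%) lower in starved cells, where 39.3% and 39.2% of all 16232 genes were called. In RA, 15 (39.5%) were called higher and 17 (44.7%) lower, where 35.0% and 33.7% of all genes were called. The shares were near those of all genes, with the largest gap among the genes lowered in RA. Changes were mostly small. On the log2(value + 1) scale, 6 genes changed by at least 1 in WT (15.8%, against 19.6% of all genes) and 2 in RA (5.26%, against 9.03%). Gfpt2 in RA fell just short at 0.99, though its mean under starvation was 2.62 times that in normal medium. The median size of the response was 0.48 in WT and 0.40 in RA, against 0.48 and 0.33 over all genes.

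Of the 38 genes, 27 (71.1%) were called in both genotypes in the same direction, against 54.5% of all 16232 genes, and 2 (Gpi1 and Gfpt1) were called in WT alone and 4 (Gapdh, Pgk1, Rpia and Pygl) in RA alone. Tkt was called in opposite directions. Slc2a3, Pfkp, Slc16a3 and Gbe1 were called in neither. The interaction (RA response minus WT response) was called for 21 genes, 8 (21.1%) higher and 13 (34.2%) lower, against 24.5% and 26.1% of all genes. It was at least 1 in size on the log2(value + 1) scale in 3 of the 38 genes (7.89%, against 6.10%). In 14 of the 21 the response was smaller in RA, which is 66.7%, against 77.1% of the 8207 genes with a called interaction. The other 7, in which the RA response was larger, were Slc2a1, Gapdh, Pgk1, Pgam1, Pkm, Tkt and Gys1.

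**Figure D1:**
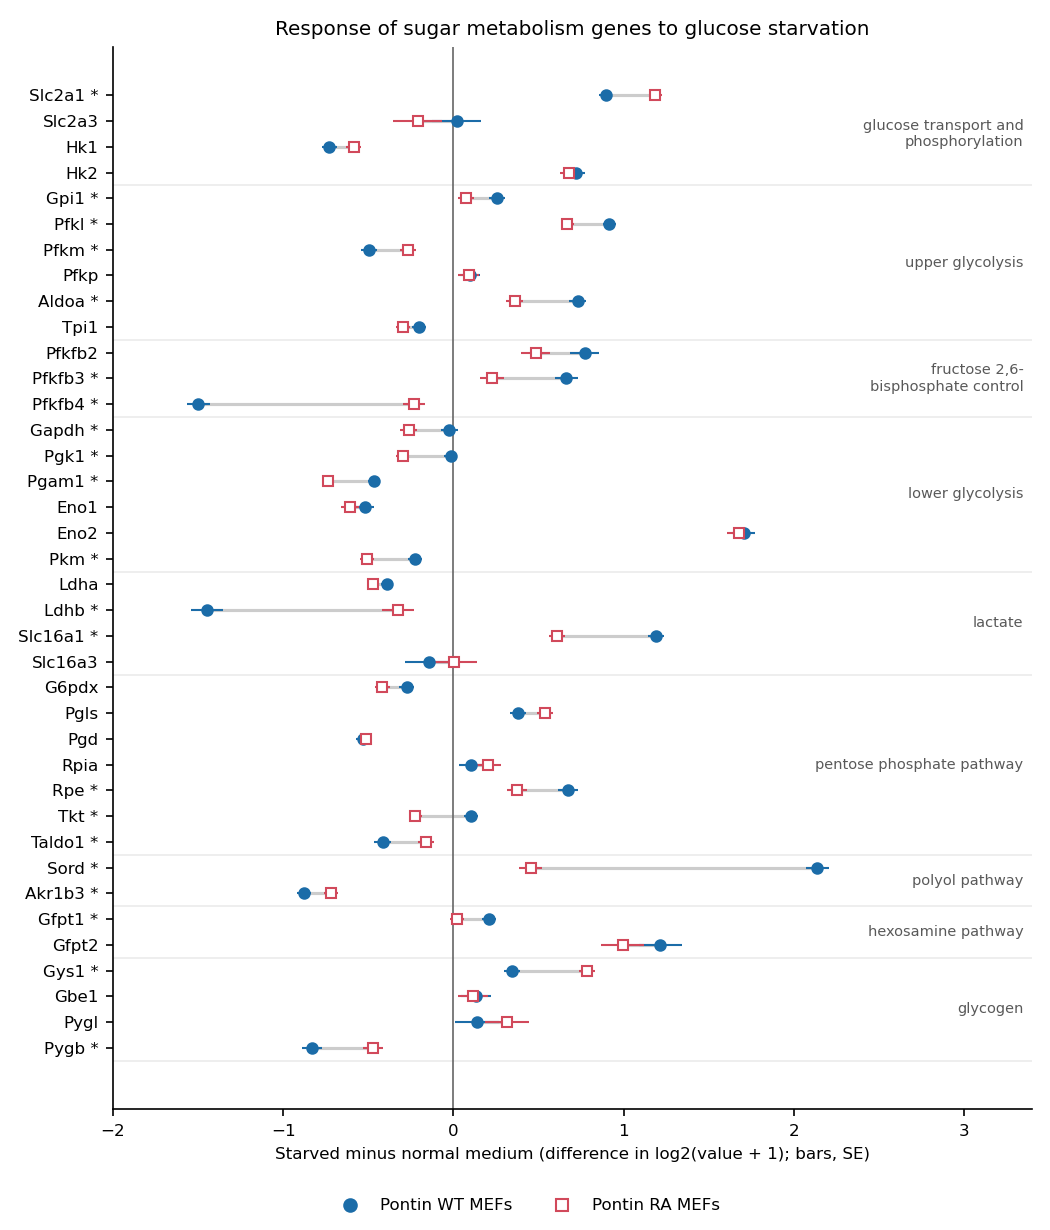
Starvation response of the 38 tested genes by role, as starved minus normal medium on the log2(value + 1) scale, in Pontin WT (filled circles) and Pontin RA MEFs (open squares), with SE bars; an asterisk marks a called interaction. Sord (2.14 in WT, 0.46 in RA), Pfkfb4 (-1.50 and -0.23) and Ldhb (-1.45 and -0.33) have the longest lines between the genotypes.

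At the entry of glucose, starvation raised the main glucose transporter and shifted the balance of the hexokinases in both genotypes. Slc2a1, which encodes the widely used transporter GLUT1, was at 93.6 and 92.6 in WT in normal medium and at 175.3 and 172.6 in starved WT. In RA it went from 98.5 and 98.3 to 225.6 and 224.9. The starved samples lay above all normal ones, and starved RA above starved WT. Its response was 0.89 in WT (SE 0.037, limma adjusted p = 4.25e-13) and 1.19 in RA (SE 0.037, adjusted p = 2.65e-14), with an interaction of 0.29 (SE 0.052, limma adjusted p = 0.000179). An antisense RNA, Gm12868, shares 105 exon bases with Slc2a1 in GRCm38 and was at 58.0 to 65.5 in normal medium, 114.2 and 116.2 in starved WT and 147.2 and 148.8 in starved RA. Its values moved in the same order as those of Slc2a1, and the part of shared reads was not tested. Slc2a3, which encodes GLUT3, was at 6.32 to 9.38, its groups overlapped, and it was not called.

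Hexokinases phosphorylate glucose and so trap it in the cell. Hk1 was at 109.8 to 115.6 in normal medium, at 68.9 and 65.8 in starved WT and at 75.8 and 73.7 in starved RA. Hk2 was at 37.7 and 34.4 in WT and 41.8 and 42.5 in RA in normal medium, and at 60.4 and 59.8 in starved WT and 69.0 and 67.2 in starved RA. Hk1 thus fell in both genotypes and Hk2 rose in both, with no overlap. Hk1 changed by -0.73 in WT and -0.58 in RA, and Hk2 by 0.72 and 0.68 (limma adjusted p at most 3.57e-09). Per kilobase of the longest principal transcript, Hk2 went from 17.5% to 19.1% of the pair in WT in normal medium to 37.9% and 38.8% under starvation, and in RA from 21% and 20.4% to 38.9% in both. Neither interaction was called (limma adjusted p = 0.0617 and 0.645), and that of Hk1 was called with total-read scaling (0.21, adjusted p = 0.00853), quantile normalization (0.21, adjusted p = 0.0101) and edgeR (0.18, adjusted p = 0.0257).

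In upper glycolysis, from glucose 6-phosphate to triose phosphate, the liver-type phosphofructokinase and aldolase A rose and the muscle-type phosphofructokinase fell. Phosphofructokinase is the committed and most regulated step. Pfkl was at 128.3 and 127.9 in WT and 116.7 and 123.7 in RA in normal medium, and at 241.3 and 244.1 in starved WT and 189.1 and 194.2 in starved RA. Pfkm was at 63.1 to 70.0 in normal medium, 48.5 and 49.6 in starved WT and 54.2 and 53.2 in starved RA. Starved and normal samples did not overlap for either gene, and starved RA lay between starved WT and the normal samples for both. The changes were 0.92 in WT and 0.67 in RA for Pfkl, and -0.50 and -0.26 for Pfkm. The interactions were -0.25 for Pfkl (SE 0.055, limma adjusted p = 0.00137) and 0.23 for Pfkm (SE 0.065, limma adjusted p = 0.00718). Pfkp, the platelet form, was at 38.0 to 43.6 and was not called in any comparison. Per kilobase, Pfkl made up 50.4% and 50.7% of the 3 forms in WT in normal medium and 71.0% and 70.2% under starvation. In RA it went from 49.3% and 50.9% to 63.3% and 64.6%.

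Aldoa, which encodes the aldolase that splits fructose 1,6-bisphosphate, was at 445.5 and 456.8 in WT in normal medium and at 737 and 763 in starved WT. In RA it was at 409 and 467 in normal medium and at 565 and 558 under starvation. It rose in both genotypes, by 0.73 in WT and 0.36 in RA, and starved RA lay below starved WT. The interaction was -0.37 (SE 0.071, limma adjusted p = 0.00034). Gpi1, the isomerase ahead of phosphofructokinase, was at 226.9 and 228 in normal and 272 and 271.9 in starved WT, against 210.3 to 236.5 in the 4 RA samples. Its rise was called in WT (0.26, limma adjusted p = 6.68e-05) and not in RA (0.07, adjusted p = 0.161). Its interaction, -0.18 (limma adjusted p = 0.0256), was lost in 11 alternatives, among them the removal of either WT sample in normal medium, either starved WT sample, replicate 2 of RA in normal medium or either starved RA sample (-0.10 to -0.19, adjusted p = 0.0524 to 0.124). Tpi1, which interconverts the triose phosphates, fell by 0.20 in WT and by 0.30 in RA, from 476.0 to 493.3 in normal medium to 383.6 to 425.9 under starvation. Its interaction was -0.09 (limma adjusted p = 0.183).

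The 3 enzymes of the group that set fructose 2,6-bisphosphate, the strongest activator of phosphofructokinase, moved in opposite directions. Pfkfb1, a further form outside the group, had a mean of 8.61 in normal and 1.62 in starved WT, and of 7.76 and 3.13 in RA. It fell by 1.88 in WT and by 1.09 in RA, with an interaction of 0.78 (limma adjusted p = 0.00139). Pfkfb4 was at 29.1 and 27.4 in WT in normal medium and at 9.33 and 9.35 in starved WT. In RA it was at 30.0 and 29.5 in normal medium and at 25.7 and 24.7 under starvation. Starved WT thus stood alone, at 0.33 of its level in normal medium, while starved RA lay just under the normal samples. The response was -1.50 in WT (SE 0.066, limma adjusted p = 1.18e-12) and -0.23 in RA (SE 0.066, limma adjusted p = 0.0053), and the interaction was 1.27 (SE 0.093, limma adjusted p = 9.59e-09). The small RA decrease was not called without replicate 2 of starved RA (-0.20, adjusted p = 0.053).

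Pfkfb3, the form with the highest kinase activity, rose from 24.2 and 24.3 to 39.3 and 38.8 in WT and from 24.0 and 20.7 to 25.7 and 26.7 in RA. Starved WT lay above the other 3 groups. The response was 0.66 in WT (limma adjusted p = 1.05e-07) and 0.23 in RA (limma adjusted p = 0.00711), with an interaction of -0.44 (SE 0.096, limma adjusted p = 0.0012). The RA rise was lost without replicate 2 of RA in normal medium (0.13, adjusted p = 0.126) or of starved RA (0.20, adjusted p = 0.0563). Pfkfb2, the heart form, rose by 0.77 in WT (14.9 to 15.1 in normal medium, 26.2 to 26.6 under starvation) and by 0.48 in RA (13.0 to 15.1, then 18.5 to 21.7). Its interaction of -0.29 was not called (limma adjusted p = 0.0578), and 17.4% of its exon bases are shared with Gm29427 on the same strand. Per kilobase, Pfkfb4 went from 49.1% and 47.7% of the 3 forms of the group to 15.6% and 15.8% in WT. In RA it went from 50.03% and 53.3% to 43.1% and 39.8%. Pfkfb1 is not counted in these shares.

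**Figure D2:**
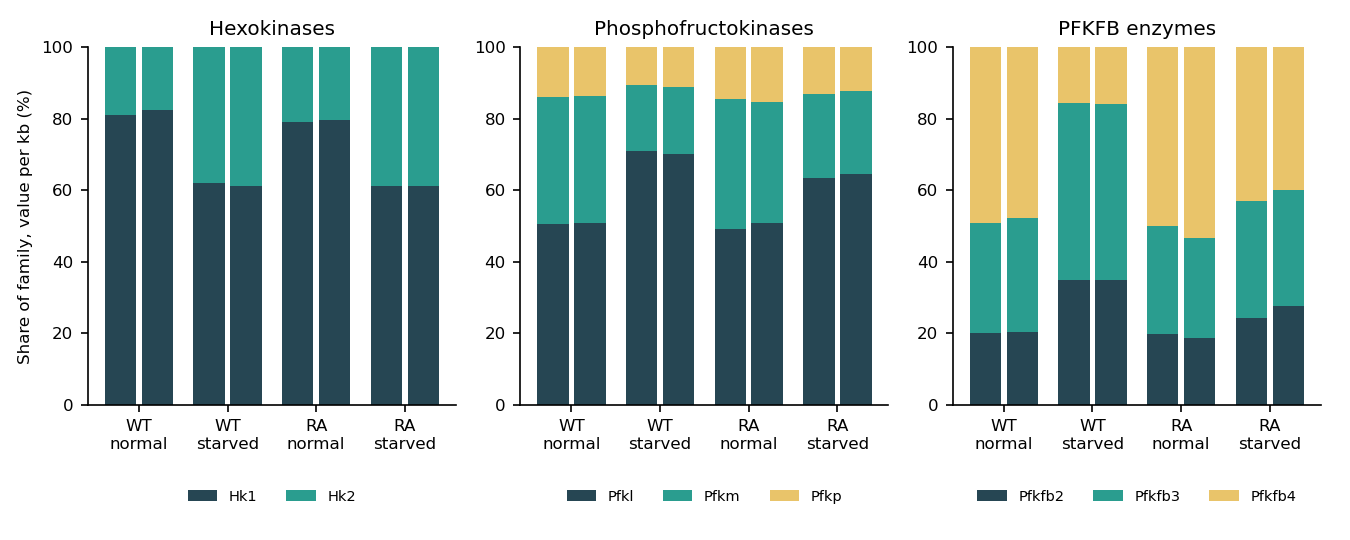
Share of each isozyme among the genes of its family in the group, with 1 bar for each of the 8 samples. Shares are in percent of the summed value per kilobase of the longest principal transcript (GENCODE M21 on GRCm38). Pfkfb1, outside the group, is not counted. Hk2 reaches 37.9% to 38.9% in all 4 starved samples, whereas Pfkfb4 drops to 15.6% and 15.8% in starved WT and lies at 43.1% and 39.8% in starved RA.

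Lower glycolysis, from glyceraldehyde 3-phosphate to pyruvate, holds Gapdh, Pkm and Eno1, the 3 genes with the highest mean level per kilobase, and 4 of its 6 interactions were called, all towards lower values in RA (26.1% of all genes were called in that direction). In WT 1 of 6 genes was called higher and 3 lower, where 39.3% and 39.2% of all genes were called. In RA 1 was called higher and 5 lower, where 35.0% and 33.7% of all genes were called. Pgam1, the phosphoglycerate mutase, was at 778 in both WT samples in normal medium, at 558 and 569 in starved WT, at 800 and 812 in RA in normal medium and at 483 in both starved RA samples. Starved RA was the lowest group, and the response was -0.46 in WT and -0.74 in RA, with an interaction of -0.27 (SE 0.051, limma adjusted p = 0.00029). Pkm, the pyruvate kinase that makes ATP and pyruvate, was at 2413 and 2457 in normal and 2093 and 2071 in starved WT, and at 2493 and 2525 in normal and 1774 and 1756 in starved RA. It fell by 0.23 in WT and by 0.51 in RA, again lowest in starved RA, with an interaction of -0.28 (SE 0.061, limma adjusted p = 0.00108).

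Gapdh and Pgk1, the dehydrogenase and kinase of the first ATP-yielding steps, changed little in WT. Gapdh was at 2121 and 2135 in normal and 2077 and 2111 in starved WT, and at 2208 and 2462 in normal and 1970 and 1917 in starved RA. Pgk1 was at 813.8 to 833.8 in all 4 WT samples, at 903 and 893 in RA in normal medium and at 738 and 723 in starved RA. The WT responses were -0.02 for both (limma adjusted p = 0.685 and 0.698). The direction was the same with total-read scaling (Gapdh -0.10, adjusted p = 0.0422; Pgk1 -0.09, adjusted p = 0.0224) and quantile normalization (-0.24, adjusted p = 1.1e-05, and -0.21, adjusted p = 5.63e-05), which called both. In RA they fell by 0.26 (limma adjusted p = 0.000231) and by 0.30 (limma adjusted p = 2.01e-06). The interaction of Pgk1 was -0.28 (SE 0.053, limma adjusted p = 0.000304). That of Gapdh was -0.24 (SE 0.072, limma adjusted p = 0.0114). It was lost without replicate 1 of WT in normal medium (-0.23, adjusted p = 0.0509), without replicate 2 of starved RA (-0.22, adjusted p = 0.0566) and without the filter (-0.24, adjusted p = 0.08), and with quantile normalization it changed sign (0.03, adjusted p = 0.707). Gapdh shares reads with many near-identical copies: 76 of them in the table summed to a mean value of 1630, or 76.5% of that of Gapdh, so its own level is uncertain. The figures were 68.3% for the 2 copies of Pgk1, 52% for the 3 of Eno1 and 29% for 1 copy of Pgam1.

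The enolases of the group, which make phosphoenolpyruvate, went apart. Eno1, the common form, was at 1694 to 1925 in normal medium and at 1173 to 1258 under starvation. It fell by 0.52 in WT and by 0.61 in RA, and its interaction was -0.09 (limma adjusted p = 0.324). Eno2, known from neurons, was at 10.5 and 10.7 in normal and 36.0 and 37.4 in starved WT, and at 9.61 and 9.49 in normal and 33.3 and 32.2 in starved RA. It rose with no overlap by 1.71 in WT (SE 0.068, limma adjusted p = 3.11e-13) and by 1.68 in RA (SE 0.068, limma adjusted p = 1e-12), and the interaction was -0.03 (SE 0.097, limma adjusted p = 0.824). Eno3, an enolase outside the group, had a mean of 103.9 in normal and 26.6 in starved WT, and of 98.9 and 47.2 in RA. It fell by 1.92 in WT and by 1.05 in RA, and its interaction of 0.87 was called (limma adjusted p = 1.47e-08).

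Around lactate, the heart-type lactate dehydrogenase fell and a lactate transporter rose, both more in WT than in RA. Ldhb was at 18.6 and 17.3 in WT in normal medium and at 6.37 and 5.52 in starved WT. In RA it was at 18.5 and 20.5 in normal medium and at 16.4 and 14.3 under starvation. Starved WT stood alone, as for Pfkfb4. The response was -1.45 in WT (SE 0.094, limma adjusted p = 2.47e-10) and -0.33 in RA (SE 0.094, limma adjusted p = 0.00564), with an interaction of 1.12 (SE 0.13, limma adjusted p = 2.84e-06). The RA decrease was lost without replicate 2 of RA in normal medium (-0.26, adjusted p = 0.0607) or of starved RA (-0.23, adjusted p = 0.0891). Ldha, the main form, was at 728.0 to 746.5 in normal medium, 568.0 and 559.8 in starved WT and 537.5 and 525.0 in starved RA. Ldha fell by 0.39 in WT and by 0.47 in RA, and its interaction was -0.08 (limma adjusted p = 0.197). Per kilobase, Ldhb was 3.3% and 3.08% of the pair in normal and 1.5% and 1.32% in starved WT, and between 3.32% and 3.97% in all RA samples.

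Slc16a1, which encodes the lactate and pyruvate transporter MCT1, was at 44.1 and 41.7 in WT in normal medium and 99.9 and 98.2 in starved WT. In RA it was at 46.5 and 44.9 in normal medium and at 70.3 and 70.0 under starvation. It rose in both genotypes, and starved RA lay between starved WT and the normal samples. The response was 1.19 in WT (SE 0.046, limma adjusted p = 1.97e-13) and 0.61 in RA (SE 0.046, limma adjusted p = 3.51e-09), with an interaction of -0.58 (SE 0.065, limma adjusted p = 1.52e-06). Slc16a3, which encodes the lactate exporter MCT4, was at 0.851 to 1.39 in the 8 samples and was not called in any comparison.

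**Figure D3:**
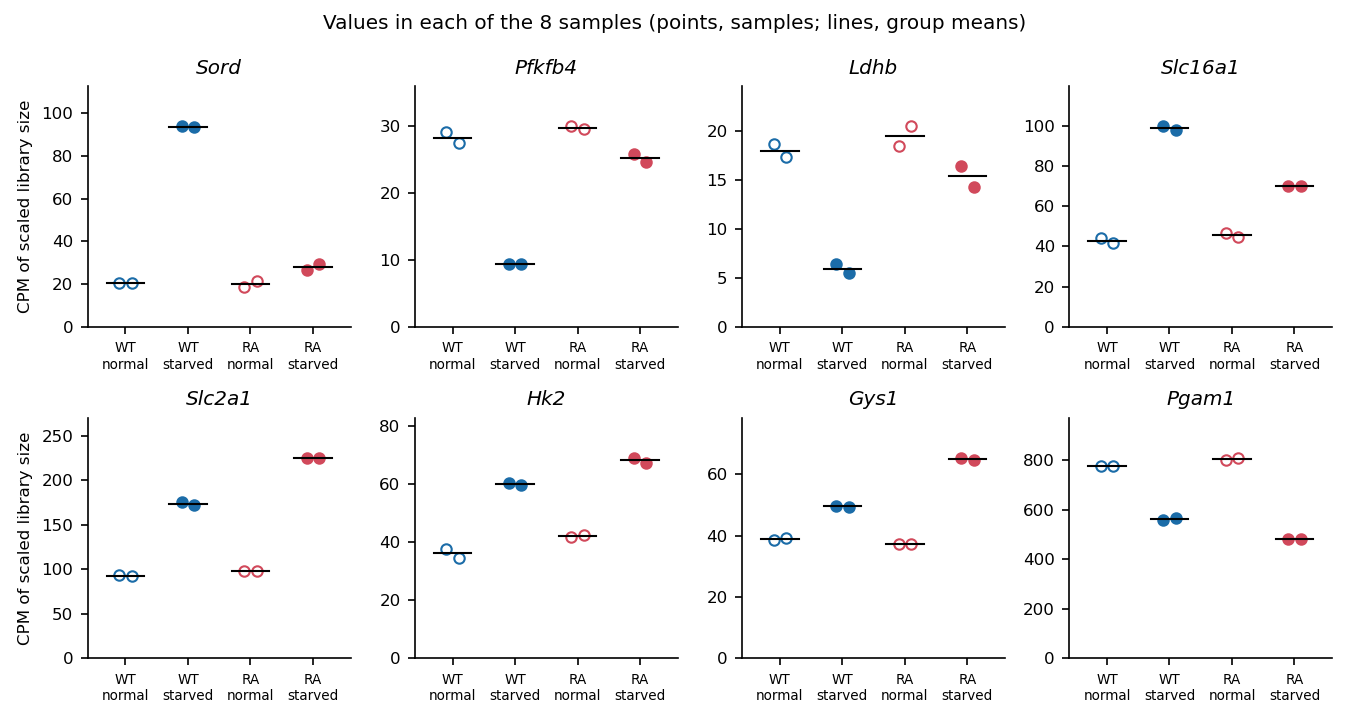
Values of 8 genes in each sample, in CPM of the scaled library size on linear axes from 0, with points for the 2 replicates of each group, lines for group means, blue for WT, red for RA, open for normal medium and filled for starvation. In Sord (94 and 93.5), Pfkfb4 (9.33 and 9.35) and Ldhb (6.37 and 5.52) starved WT stands apart from the other 3 groups, in Slc16a1 starved RA is intermediate, and in Slc2a1, Hk2 and Gys1 starved RA is the highest group.

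In the pentose phosphate pathway, both NADPH-making dehydrogenases fell and their intervening lactonase rose. G6pdx, the entry enzyme, was at 96.8 to 105.5 in normal medium and at 76.6 to 82.9 under starvation. Pgd was at 195.4 to 209.2 and at 135.5 to 144.6. Their groups did not overlap between media. G6pdx fell by 0.27 in WT and by 0.42 in RA, and Pgd by 0.53 and 0.51 (limma adjusted p at most 2.1e-05). Pgls, which hydrolyses the lactone between them, rose from 50.2 and 52.8 to 67.8 and 66.7 in WT and from 54.3 and 56.4 to 79.0 and 82.4 in RA. The rise was 0.38 in WT and 0.54 in RA, and the interaction of 0.16 was not called (limma adjusted p = 0.0561). It was called with total-read scaling (0.23, adjusted p = 0.00848), quantile normalization (0.22, adjusted p = 0.0108) and edgeR (0.19, adjusted p = 0.025). Pgls shares 776 exon bases on the same strand with Fam129c, which was at 0.814 to 1.57 in normal medium, 7.27 and 8.63 in starved WT and 2.66 and 2.72 in starved RA. G6pdx shares 418 exon bases with Ikbkg on the opposite strand.

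The non-oxidative enzymes, which shuttle sugars back to glycolysis, were more mixed. Tkt, transketolase, was at 307.1 and 318.6 in normal and 332.3 and 340.6 in starved WT, and at 296.3 and 315.6 in normal and 265.7 and 258 in starved RA. It was higher in starved WT by 0.10 (limma adjusted p = 0.0253) and lower in starved RA by 0.22 (limma adjusted p = 0.000107), with an interaction of -0.33 (SE 0.057, limma adjusted p = 0.000148). The WT call was lost without replicate 1 of WT in normal medium (0.08, adjusted p = 0.19), without replicate 2 of starved WT (0.09, adjusted p = 0.12), with total-read scaling (0.03, adjusted p = 0.432), with edgeR (0.07, adjusted p = 0.137) and without the filter (adjusted p = 0.0701). Taldo1, transaldolase, was at 55.1 and 56.7 in normal and 40.8 and 42.5 in starved WT, and at 63.5 and 67.9 in normal and 58.8 and 58.6 in starved RA. RA lay above WT in both media. It fell by 0.42 in WT and by 0.16 in RA, with an interaction of 0.26 (SE 0.069, limma adjusted p = 0.00547). The RA decrease was lost without replicate 2 of RA in normal medium (-0.11, adjusted p = 0.087).

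Rpe, the pentose epimerase, was at 26.2 and 28.1 in normal and 42.8 and 45 in starved WT, and at 30.2 and 28.0 in normal and 37.4 and 38.6 in starved RA. It rose by 0.67 in WT and by 0.37 in RA, with an interaction of -0.30 (SE 0.085, limma adjusted p = 0.00725). Its exons share 558 bases with Kansl1l on the opposite strand, which was at 14.9 to 16.1 in normal medium, 60.0 and 59.6 in starved WT and 31.8 and 31.2 in starved RA. The neighbour therefore moved in the same order as Rpe, and the part of shared reads was not tested. Rpia, the pentose isomerase, was at 15.0 to 16.9 in normal medium and 17.7 to 18.3 under starvation. Its change was 0.11 in WT (limma adjusted p = 0.192) and 0.21 in RA (limma adjusted p = 0.0187). The RA call was lost without replicate 1 of RA in normal medium (0.16, adjusted p = 0.122) or either starved RA sample (0.19 and 0.22, adjusted p = 0.0896 and 0.0534).

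The polyol pathway held the largest starvation response of the 38 genes and the largest difference between the genotypes. Sord, sorbitol dehydrogenase, which oxidises sorbitol to fructose, was at 20.4 and 20.7 in WT in normal medium and at 94 and 93.5 in starved WT. In RA it was at 18.9 and 21.6 in normal medium and at 26.7 and 29.5 under starvation. The 4 normal samples were alike, starved WT was 4.57 times its own level in normal medium, and starved RA was 1.39 times its own. The response was 2.14 in WT (SE 0.068, limma adjusted p = 1.27e-14) and 0.46 in RA (SE 0.068, limma adjusted p = 1.34e-05), and the interaction was -1.68 (SE 0.095, limma adjusted p = 3.11e-10). A near-identical copy, Gm6652, had a mean value of 4.76, or 11.7% of that of Sord. Akr1b3, the aldose reductase that makes sorbitol from glucose, went the other way, from 201.2 and 211.6 to 108.6 and 114.9 in WT and from 236.9 and 241.8 to 146.5 and 143.1 in RA. It fell by 0.88 in WT and by 0.72 in RA (limma adjusted p at most 7.92e-11). Its interaction, 0.16 (limma adjusted p = 0.0313), was lost without the filter (adjusted p = 0.0839) and on leaving out replicate 2 of WT in normal medium, replicate 1 of starved WT, replicate 1 of RA in normal medium or either starved RA sample (0.12 to 0.17, adjusted p = 0.0516 to 0.15). The 4 copies of Akr1b3 in the table reached 39% of its value.

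In the hexosamine pathway both glutamine-fructose-6-phosphate transaminases were called higher in starved WT. Gfpt1 was at 108.0 and 108.1 in normal and 128.3 and 121.7 in starved WT, and at 98.8 to 101.4 in the 4 RA samples. It rose by 0.21 in WT (limma adjusted p = 0.000159), and the RA difference was 0.02 (limma adjusted p = 0.662). Its interaction of -0.19 (limma adjusted p = 0.0115) was lost without replicate 1 of starved WT (-0.15, adjusted p = 0.0557) and with total-read scaling (-0.12, adjusted p = 0.123). Gfpt2 was low, at 1.22 to 1.63 in normal medium and 3.8 to 4.67 under starvation. It rose by 1.22 in WT and by 0.99 in RA (limma adjusted p at most 2.6e-06) without overlap, and its interaction was -0.22 (limma adjusted p = 0.325).

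In glycogen handling the synthase rose and the main phosphorylase fell in both genotypes. Gys1, glycogen synthase, was at 38.6 and 39.2 in normal and 49.8 and 49.4 in starved WT, and at 37.4 and 37.1 in normal and 65.4 and 64.7 in starved RA. The rise was 0.34 in WT and 0.79 in RA, with starved RA the highest group and an interaction of 0.44 (SE 0.066, limma adjusted p = 3.37e-05). Exons of Gys1 share 310 bases with Ruvbl2 on the opposite strand, which was at 79.4 to 87.1 in normal medium and 69.3 to 78.0 under starvation, and the part of shared reads was not tested. Pygb, the brain-type glycogen phosphorylase, was at 78.0 and 76.7 in normal and 45.9 and 40.4 in starved WT, and at 82.7 and 76.1 in normal and 55.3 and 58.7 in starved RA. It fell by 0.83 in WT and by 0.47 in RA, with an interaction of 0.36 (SE 0.084, limma adjusted p = 0.00182). Gbe1, the branching enzyme, was at 12.2 to 14.6 and was not called. Pygl, the liver phosphorylase, was at 0.92 to 1.53. Its call in RA (0.31, limma adjusted p = 0.0418) was lost in 10 alternatives, among them the removal of any 1 RA sample or of either starved WT sample (0.25 to 0.37, adjusted p = 0.0512 to 0.181).

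Before starvation the genotypes differed little in these genes. In normal medium RA exceeded WT in 3 of 38 genes (7.89%, against 6.68% of all genes) and was called lower in none (against 2.95%). At an unadjusted p under 0.05 limma gave 7 higher and 3 lower, a threshold at which the share of all genes was not computed. At an adjusted p under 0.05 edgeR called 5 higher and 0 lower, and DESeq2 4 higher and 0 lower. Over all genes these called 1555 and 1399 in either direction. The 3 were Taldo1 (0.23, limma adjusted p = 0.0063), Hk2 (0.22, adjusted p = 0.0115) and Akr1b3 (0.21, adjusted p = 0.00305), with no overlap between the genotypes. The split depended on the scaling, with 3 higher and 2 lower at total-read scaling and 3 and 3 at quantile normalization. Hk2 was lost without replicate 2 of WT (0.16, adjusted p = 0.142) or of RA (0.21, adjusted p = 0.0538) in normal medium, Taldo1 without replicate 1 of WT (0.21, adjusted p = 0.085) or replicate 2 of RA (0.18, adjusted p = 0.0655), and Akr1b3 without replicate 1 of WT (0.18, adjusted p = 0.0788).

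Under starvation 25 of the 38 genes separated the genotypes. RA was called higher than WT in 11 (28.9%, against 30.8% of all genes) and lower in 14 (36.8%, against 32.1%). The higher genes included Pfkfb4 (1.34, SE 0.066, limma adjusted p = 1.98e-11), Ldhb (1.24, SE 0.094, limma adjusted p = 6.24e-09), Taldo1 (0.49), Pygb (0.40), Gys1 (0.38), Slc2a1 (0.37), Akr1b3 (0.37) and Pgls (0.26). The lower genes were led by Sord (-1.70, SE 0.068, limma adjusted p = 9.66e-13), Pfkfb3 (-0.56), Slc16a1 (-0.49), Aldoa (-0.42), Pfkfb2 (-0.38), Tkt (-0.36) and Pfkl (-0.34), each with an adjusted p of at most 0.001. Gpi1, Pgk1, Pgam1, Pkm, Rpe and Gfpt1 were also lower in RA, with differences from -0.30 to -0.17. Of the 6 genes of lower glycolysis 4 were called, among them Eno2 (-0.16), all lower in RA, where 32.1% of all genes were. Of the 4 genes of glucose transport and phosphorylation 3 were called, all higher in RA, where 30.8% of all genes were. The other, Slc2a3, was lower in RA and not called (-0.21, limma adjusted p = 0.203). These differences share the starved samples with the responses above and are not independent of them. The smallest depended on 1 library: Hk1 (0.15) was lost without replicate 2 of starved WT (0.12, adjusted p = 0.0691) or replicate 1 of starved RA (0.13, adjusted p = 0.0647), Hk2 (0.18) without the latter (0.16, adjusted p = 0.0578), and Rpe (-0.20) without either of the same samples (-0.17 and -0.18, adjusted p = 0.0676 and 0.0596). Pfkm (0.13) was lost without replicate 1 of starved WT or either starved RA sample (0.11 to 0.14, adjusted p = 0.0582 to 0.117), and Eno2 (-0.16) without any 1 WT or starved RA sample (-0.14 to -0.19, adjusted p = 0.0521 to 0.211) and with total-read scaling (-0.14, adjusted p = 0.0908).

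**Figure D4:**
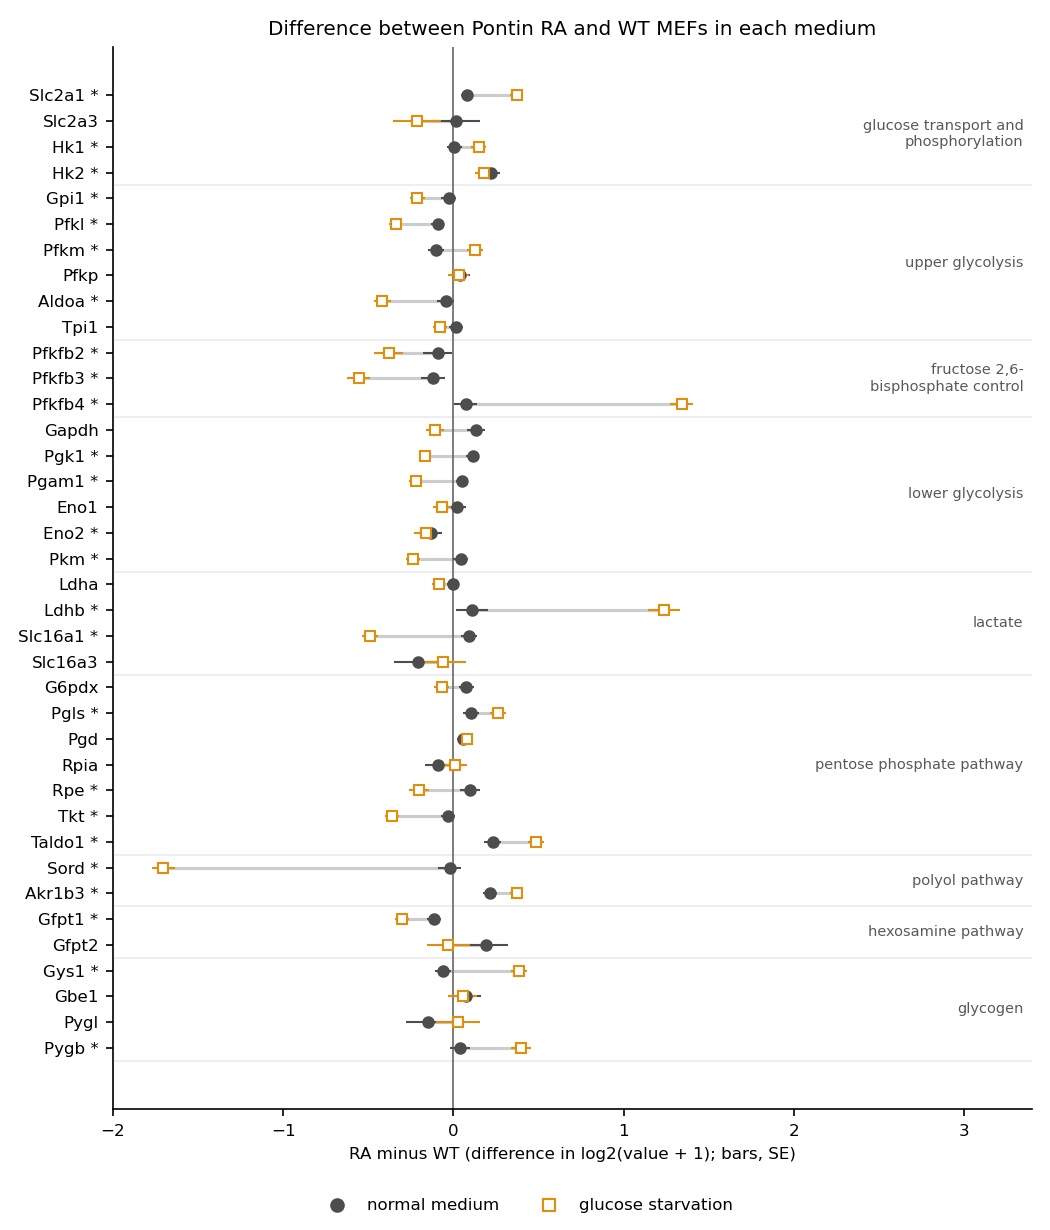
Difference between Pontin RA and Pontin WT MEFs for the 38 tested genes by role, as RA minus WT on the log2(value + 1) scale with SE bars, in normal medium (filled circles) and under glucose starvation (open squares); an asterisk marks a call under starvation. In normal medium all genes lie between -0.21 and 0.23, and under starvation they run from -1.70 (Sord) to 1.34 (Pfkfb4).

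Summed by role, lower glycolysis was lower and upper glycolysis higher under starvation in both genotypes. The 6 genes of lower glycolysis summed to a value of 7958 ± 83.5 in normal and 6837 ± 49.8 in starved WT, and to 8367 ± 367 and 6139 ± 47.5 in RA (SD, n = 2). The 7 genes of upper glycolysis summed to 1396 ± 0.882 and 1773 ± 35.2 in WT and to 1372 ± 76.5 and 1480 ± 21 in RA. The 4 genes of glucose transport and phosphorylation summed to 249.3 ± 2.49 and 309.4 ± 2.88 in WT and to 261.3 ± 2.64 and 374.9 ± 3.91 in RA. In each of these sums starved and normal samples did not overlap, and no test was run on them. Upper glycolysis in RA was at 1318 and 1426 in normal medium and at 1494 and 1465 under starvation. There the 2 normal samples were about as far apart as the means of the media. Of the 6 tested genes of that role, 2 were called higher and 2 lower in RA. Glycogen genes summed to 129.7 ± 0.668 in normal and 107.7 ± 2.6 in starved WT, against 130.6 ± 4.61 and 137.6 ± 1.86 in RA. All 39 genes together took 1.2% of the library in WT and 1.21% in RA in normal medium, and 1.06% and 0.973% under starvation.

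Other genes of sugar metabolism, from a list of 95 of which 76 were tested, were called higher in 38 (50%) and lower in 24 (31.6%) cases in WT, against 39.3% and 39.2% of all genes. In RA 37 (48.7%) were called higher and 18 (23.7%) lower, against 35.0% and 33.7%. The largest changes were in Gnpda1, which turns glucosamine 6-phosphate back to fructose 6-phosphate. It went from 21.2 and 20.4 to 147.1 and 148.2 in WT and from 22.3 and 23.5 to 76.1 and 79.8 in RA (2.77 and 1.73, interaction -1.04, limma adjusted p = 3.44e-09). Stbd1, which binds glycogen and takes it to lysosomes, rose by 2.36 in WT and by 1.69 in RA. Slc2a6, of the hexose transporter family, rose by 2.29 and 1.62 from values under 1, and Pck2, the mitochondrial enzyme of gluconeogenesis, by 1.76 and 1.93. Tktl1, a relative of transketolase, was at 0.322 to 0.435 in normal medium, at 5.45 and 5.43 in starved WT and at 1.21 and 0.516 in starved RA. Of these 5 responses 4 had a called interaction with a smaller change in RA, and that of Pck2 was called larger (interaction 0.17, limma adjusted p = 0.0479). Among all 8207 genes with a called interaction, 77.1% had the smaller response in RA. These 5 were picked for a large change, mostly that in WT, so the count is a description only.

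Among 16 tested regulators of glycolytic genes, 9 (56.2%) were called higher and 4 (25.0%) lower in starved WT, and 8 (50%) and 3 (18.8%) in starved RA, where the shares of all genes are those given above. Srebf1, a regulator of lipid and glucose genes, fell from 73.3 and 75.6 to 33.2 and 29.7 in WT and from 70.3 and 71.8 to 51.9 and 51.8 in RA. Foxk1, a forkhead factor that promotes glycolysis, rose from 33.1 and 32.1 to 76.0 and 67.0 in WT and from 31.2 and 33.7 to 42.2 and 43.4 in RA. The interactions were 0.77 (limma adjusted p = 2.7e-07) and -0.71 (limma adjusted p = 3.91e-06), so both responses were smaller in RA. Mycn was lower under starvation, with called changes of -1.16 and -1.003, from values of 0.874 to 2.09 to values of at most 0.207.

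Hypoxia-inducible factor (HIF) is known to drive many glycolytic genes, so 17 of its targets outside glycolysis were set beside the group. This list, like those above, was written with earlier results of these data known, so its counts are a description only. In WT 14 (82.4%) were called higher and 1 (5.88%) lower under starvation, against 39.3% and 39.2% of all genes, with a median of 0.88. In RA 13 (76.5%) and 3 (17.6%) were called, against 35.0% and 33.7%, with a median of 0.68. Of the interactions 12 (70.6%) were called lower and 1 (5.88%) higher, against 26.1% and 24.5% (median -0.51, against -0.01 over all genes). Ero1l, an oxidase of the endoplasmic reticulum, went from 74.1 and 75.8 to 695.7 and 700.1 in WT and from 78.8 and 77.9 to 512.7 and 512.4 in RA. Ndrg1 rose by 2.98 in WT and by 2.15 in RA, Vegfa by 2.35 and 1.98, Bnip3 by 2.16 and 1.33, Car9 by 1.91 and 1.34, and Kdm3a by 1.88 and 1.11. Adm, the 1 target called lower in WT, fell by 1.84 there and by 0.24 in RA. It had the 1 interaction called higher (1.60, limma adjusted p = 2.71e-09). Hif1a itself fell by 0.48 in WT and rose by 0.17 in RA (interaction 0.65, limma adjusted p = 2.19e-08). A part of HIF in these changes was not tested.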

How the data were processed

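RNA-seq was run on polyA RNA from 8 MEF samples. Per the labels and the study's methods, the authors used the TruSeq RNA v2 kit, mapped reads with TopHat2 2.0.9 to mm9 and used edgeR and bedtools. The read counter, annotation and handling of strand are not given in the sources used here. The authors deposited a signal per gene, CPM of a scaled library size, in columns marked minus and plus, taken as normal and starved cells after the marks used in the study. In every sample 100% of nonzero values were whole numbers of reads (tolerance 0.1), and 43205841 to 56363034 reads were recovered. Of the values of 1 to 9 reads, 78.2% to 80.5% were even numbers. Libraries were sequenced from both ends, and whether both mates of a fragment were counted is not given. A recovered read may therefore be a single mate. A level of 3 reads was 0.0548 to 0.069. This floor covers counting error only, whereas the SE and SD given reflect the spread between samples.

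Genes reaching a value of 1 in 2 or more samples entered limma 3.58.1 (R 4.3.3) on log2(value + 1), which understates changes of low genes, with 4 group means, eBayes trend, 2-sided p and BH adjustment over 16232 genes in each of 5 contrasts. All 39 genes were named. Other lists gave at most 6 genes each, those with the largest called change of at least 2-fold. A gene that this rule also named is not reported here. The genes and lists were chosen with earlier results of these data known. Alternatives were another pseudocount (0.1), no filter or a mean of at least 10, other scalings, a replicate block, edgeR 4.0.16, DESeq2 1.42.0, leaving out each sample and, chosen after seeing the data, adding near-identical copies (at least 95% identity over 200 bases, GENCODE M21). Tests were tried on simulated counts.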

Additional observations from a re-analysis of the deposited data

Results flagged for a closer look

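The response to glucose starvation differed between Pontin RA and WT MEFs in 21 of the 38 tested genes, by the limma test of the interaction over all genes, and each of these is listed here for that reason. Values are the response in RA less that in WT on the log2(value + 1) scale. Above 0 were Pfkfb4 (1.27), Ldhb (1.12), Gys1 (0.44), Pygb (0.36), Slc2a1 (0.29), Taldo1 (0.26), Pfkm (0.23) and Akr1b3 (0.16). Below 0 were Sord (-1.68), Slc16a1 (-0.58), Pfkfb3 (-0.44), Aldoa (-0.37), Tkt (-0.33), Rpe (-0.30), Pgk1 (-0.28), Pkm (-0.28), Pgam1 (-0.27), Pfkl (-0.25), Gapdh (-0.24), Gfpt1 (-0.19) and Gpi1 (-0.18).

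A value above 0 stood for a smaller decrease in RA in Pfkfb4, Ldhb, Pygb, Taldo1, Pfkm and Akr1b3, and for a larger increase in RA in Slc2a1 and Gys1. A value below 0 stood for a smaller increase in RA in Sord, Slc16a1, Pfkfb3, Aldoa, Rpe, Pfkl, Gfpt1 and Gpi1. In Pgam1 and Pkm it stood for a larger decrease in RA. In Gapdh and Pgk1 the decrease was called in RA and not in WT, and in Tkt the genotypes were called in opposite directions.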

How the results depend on the processing

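Over 190 results (5 contrasts of 38 genes) and 18 alternatives, 3400 values were obtained, since the stricter filter left 34 genes. Of these, 3268 were counted as kept, 69 lost a call and 62 gained one. The remaining 1, a called result that changed sign, was the Gapdh interaction, at 0.025 with quantile normalization (BH-adjusted p = 0.707). The 3268 include 76 that changed sign but were called in neither fit. The others among them kept their direction and side of the threshold. The number of member genes called stayed between 29 and 34 for starvation in WT (30 as reported), 27 and 33 in RA (32), 18 and 25 for the interaction (21) and 20 and 28 for RA against WT under starvation (25). For RA against WT in normal medium it was 3, moving to 5 with total-read scaling, 6 with quantile normalization and 5 with edgeR. Leaving out 1 sample gave 1 to 4, with 1 without replicate 1 of WT or replicate 2 of RA in normal medium. No scaling moved the median of all genes by over 0.1 on the log2 scale. Adding near-identical copies changed no call.

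Samples with the same replicate number deviated together with correlations of -0.00764 to 0.157 across genes, so the numbers were not taken as pairs. With the replicate block 25 interactions were called in place of 21, and 4 genes in place of 3 differed between genotypes in normal medium. The block also ended the call of Eno2 between the genotypes under starvation (-0.16, BH-adjusted p = 0.0502). In each group 2 samples limit what small changes can be resolved.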

Other observations

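The lowest levels of the group were those of Slc16a3 (0.851 to 1.39), Pygl (0.92 to 1.53) and Aldoc (0.157 to 0.739), all above the value of 3 reads (0.0548 to 0.069).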
